A study of Homo sapiens with 78 samples.

Results

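Gene expression after 6 h of budesonide was set against that of unstimulated cells of the same hour, using 7 of the 78 libraries of the series. The cells were A549, a long-established human line from a lung carcinoma that is widely used as a model of the airway and alveolar epithelium. The 4 Bud libraries came from cells given 300 nM budesonide, a synthetic glucocorticoid that patients inhale for asthma, and the 3 NS libraries, numbers 1, 2 and 4, came from cells that were not stimulated. All were wild type (WT) cells of 1 line that had spent the night before without serum. Neither group received interleukin-1β (IL-1β), and per the labels the libraries came from 4 independent experiments. The rest of the series holds the same 2 groups at 1, 2, 12 and 24 h, and cells given IL-1β with or without budesonide. These serve here to show where the response at 6 h differed.

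Budesonide enters the cell and binds the glucocorticoid receptor (GR), a nuclear receptor encoded by NR3C1 that waits in the cytoplasm in a complex with HSP90 and its co-chaperones. The bound receptor moves to the nucleus, where pairs of receptors sit on glucocorticoid response elements in the DNA, short inverted repeats with a spacer of a few bases, and raise transcription of genes nearby. Other genes are lowered, among them many that NF-κB and AP-1 drive, and in airway epithelium the induced genes include feedback inhibitors of inflammatory signaling, channels that move sodium and enzymes of fuel use.

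Values are TPM, the share of a library's transcripts that came from a gene, corrected for transcript length and normalized between libraries by the authors. Their sum per library lay between 852326 and 885345 TPM in Bud and between 827213 and 848982 TPM in NS (two-sided exact permutation test, p = 0.0571, the smallest that 4 libraries against 3 can give). How many reads lie behind each library is unknown. Mitochondrially encoded genes took 14.5% to 15.0% of the sum in both groups. Neither group had a library that stood apart: the root mean square distance to the other libraries of the group was 0.246 to 0.300 in Bud and 0.248 to 0.304 in NS, against a median of 0.281 over all 78 libraries. The epithelial keratins KRT7, KRT8 and KRT18 were among the most abundant transcripts, while 6 of 12 alveolar type II markers, SFTPA1, SFTPB and NKX2-1 among them, stayed under the filter. Summed markers of immune cells (10.6 to 14.9 TPM in Bud, 12.7 to 14.5 TPM in NS) and of endothelial cells (0.487 to 0.788 TPM in Bud, 0.454 to 0.903 TPM in NS) were low. Of the 12 immune markers, 9 stayed under 1 TPM in all 7 libraries and 4 (CD3D, CD3E, MS4A1 and AIF1) were at 0, and all 8 endothelial markers stayed under 1 TPM. The fibroblast marker sum was 10.3 to 12.8 TPM in Bud and 15.5 to 19.7 TPM in NS, most of it COL1A1, with 5 of the 10 markers under 1 TPM in all 7 libraries. Its part in the changes described here was not tested. In bulk RNA, a change in how many cells express a gene and a change in how much each cell expresses cannot be told apart.

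A gene was called where its log2 change, Bud minus NS, was at least 1 in size and its adjusted p at most 0.05. Changes are on the log2(TPM + 0.5) scale, which understates those of low genes, each is given ± its SE, and the p values come from limma, fitted to all 78 libraries and adjusted over all genes tested by the Benjamini-Hochberg method. Of 13327 genes tested, 386 were called higher in Bud (2.90%) and 129 were called lower (0.968%). Raised genes thus outnumbered lowered ones about 3 to 1, and their changes were larger: 97 raised and 12 lowered genes changed by 2 or more on the log2 scale, and 25 raised genes and 0 lowered genes by 3 or more. Without the minimum size, 1150 genes were higher (8.63%) and 886 lower (6.65%) at an adjusted p of at most 0.05. At an unadjusted p under 0.05, 1803 were higher (13.5%) and 1625 lower (12.2%), which is the background for such counts in the gene lists. The median change over all 13327 genes was 0.00. Every Bud library lay above every NS library for 381 of the 386 raised genes, and for 15.9% of all genes tested. Every Bud library lay below every NS library for 127 of the 129 lowered genes, and for 14.1% of all genes tested. Called genes were chosen for a large change and a small p, so little overlap among them is built in. Many raised genes started from little: the mean in NS was under 1 TPM for 111 of them, and 22 of these reached 5 TPM or more in Bud. Lowered genes were mostly better expressed in NS, with a median of 4.68 TPM in Bud and 12.5 TPM in NS, while the raised genes had a median of 12.9 TPM in Bud and 3.50 TPM in NS. The call rule has a part in this, since a gene near 0 in NS can rise but not fall by 1. Together the raised genes summed to 25900 TPM in Bud and 8691 TPM in NS, and the lowered genes to 1782 TPM in Bud and 4949 TPM in NS.

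**Figure D1:**
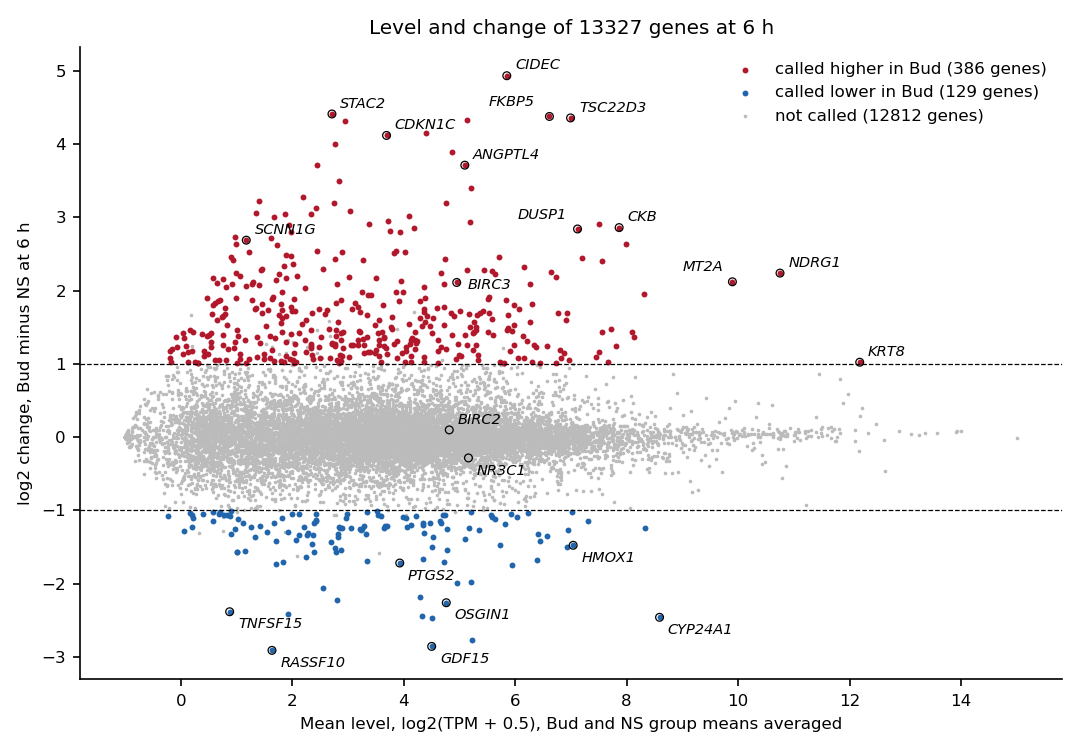
Each of the 13327 genes tested is a point, with its mean level on the horizontal axis and its log2 change, Bud minus NS at 6 h, on the vertical axis. Red points are the 386 genes called higher, blue points the 129 called lower, dashed lines mark a log2 change of 1 and -1, and open circles mark genes named in the text. The red cloud reaches 4.93 (CIDEC) and the blue cloud -2.91 (RASSF10), and the receptor gene NR3C1 lies near 0.

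The 14 most raised genes with no overlap between the groups were led by CIDEC, which encodes a protein that coats lipid droplets and makes them fuse. CIDEC had 94.7, 88.8, 102 and 158 TPM in Bud libraries, against 2.77, 1.53 and 6.21 TPM in NS libraries, a log2 change of 4.93 ± 0.40 (adjusted p = 6.67e-16). Bud library 4 was the highest, and the spread within NS was wide, but the groups were far apart. STAC2, an adaptor of voltage-gated calcium channels, had 13.5, 13.1, 11.9 and 9.56 TPM in Bud libraries, against 0.0767, 0.0965 and 0.0782 TPM in NS libraries, so it was well expressed in Bud and close to silent in NS (4.41 ± 0.12). FKBP5, the HSP90 co-chaperone that lowers the affinity of GR for its hormone, had 173, 184, 201 and 188 TPM in Bud libraries, against 8.47, 8.30 and 8.68 TPM in NS libraries (4.38 ± 0.10, adjusted p = 8.27e-43), and the libraries of each group lay close together. TSC22D3, which encodes GILZ, a leucine zipper protein that restrains NF-κB and AP-1, had 241, 240.4, 227 and 262 TPM in Bud libraries, against 12.2, 12.7 and 9.38 TPM in NS libraries (4.36 ± 0.13). These last 2 genes are standard reporters of GR activity, and in both the groups were separated by a wide gap.

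Others of the 14 code for proteins of quite different kinds. OTULINL, an endoplasmic reticulum relative of the deubiquitinase OTULIN, had 66.6, 55.4, 71.1 and 71.5 TPM in Bud libraries, against 2.66, 3.47 and 2.36 TPM in NS libraries (4.33 ± 0.26). CDH16, an atypical cadherin best known from kidney tubules, had 13.9, 14.2, 12.9 and 15.8 TPM in Bud libraries, against 0.207, 0.194 and 0.322 TPM in NS libraries (4.31 ± 0.20). TFCP2L1, a transcription factor of the grainyhead-related CP2 family, had 33.5, 37.6, 37.2 and 50.2 TPM in Bud libraries, against 1.99, 1.38 and 1.90 TPM in NS libraries (4.15 ± 0.26). All 3 were at 12.9 TPM or more in every Bud library and at 3.47 TPM or less in every NS library. CDKN1C, the cyclin-dependent kinase inhibitor p57, had 23.4, 23.6, 27.3 and 21.4 TPM in Bud libraries, against 0.995, 1.04 and 0.698 TPM in NS libraries (4.12 ± 0.20, adjusted p = 3.32e-26). GMPR, which converts GMP to IMP, had 10.7, 13.8, 12.3 and 12.8 TPM in Bud libraries, against 0.351, 0.341 and 0.213 TPM in NS libraries (4.01 ± 0.19). ETNK2, an ethanolamine kinase at the start of phosphatidylethanolamine synthesis, had 51.2, 49.1, 58.7 and 57.4 TPM in Bud libraries, against 3.92, 3.32 and 2.44 TPM in NS libraries (3.89 ± 0.18). The groups were far apart in each of these 3 genes. ANGPTL4, a secreted inhibitor of lipoprotein lipase, had 53.6, 64.0, 66.0 and 68.5 TPM in Bud libraries, against 4.07, 5.46 and 3.62 TPM in NS libraries (3.71 ± 0.19). BEST2, a chloride channel of the bestrophin family, changed by 3.71 ± 0.20 and EDN3, the peptide endothelin 3, by 3.50 ± 0.30, both from 1.25 TPM or less in every NS library. RGS2, which speeds up the GTPase of Gq and so shortens signaling by its receptors, had 61.5, 64.1, 80.3 and 60.8 TPM in Bud libraries, against 6.13, 4.47 and 7.07 TPM in NS libraries (3.41 ± 0.21), with Bud library 3 above the other three.

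**Figure D2:**
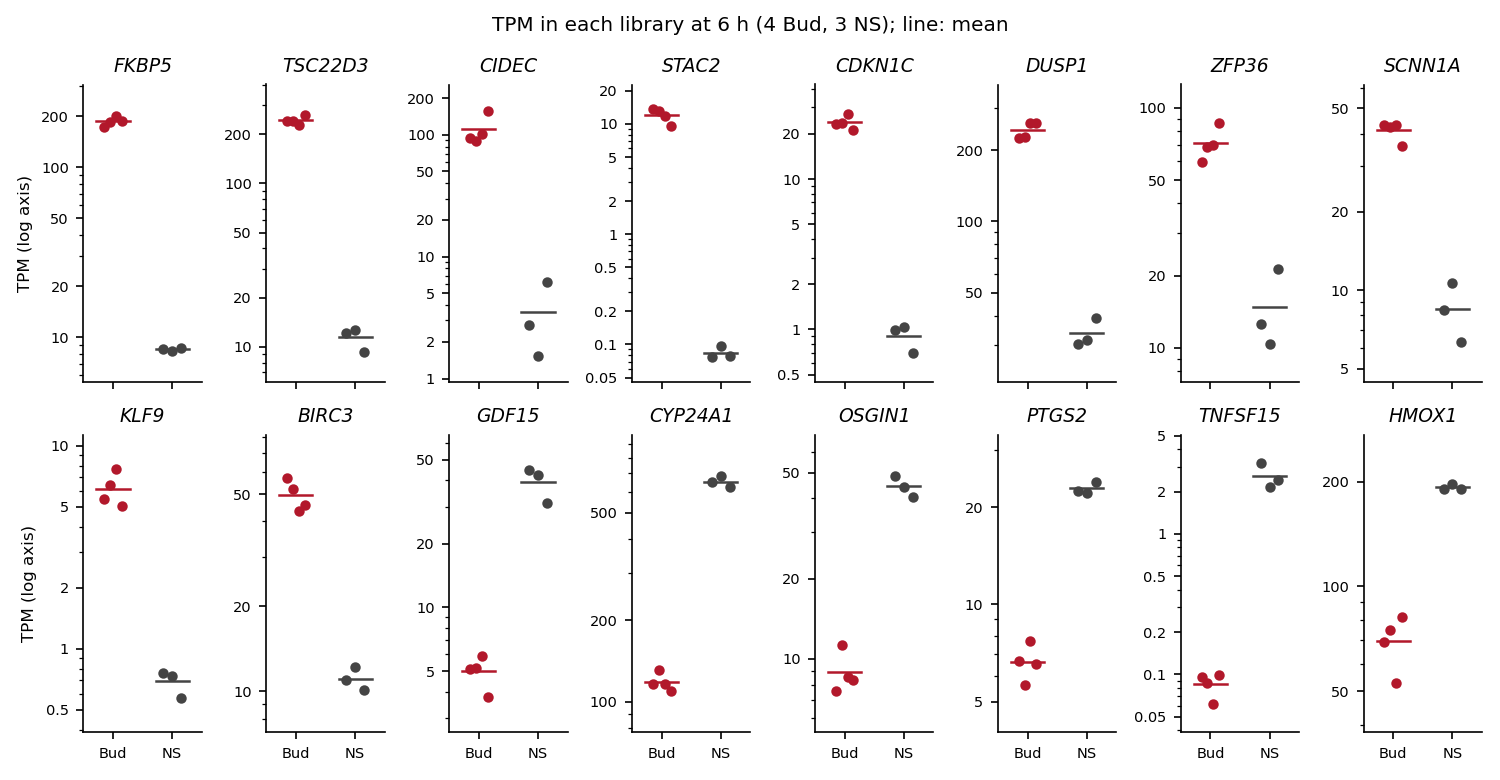
TPM of 16 genes in each of the 4 Bud libraries (red) and 3 NS libraries (black) at 6 h, on a log axis with its own range for each gene, with the mean as a line. The first 10 genes were higher in every Bud library than in any NS library, for example FKBP5 at 173 to 201 TPM in Bud and 8.30 to 8.68 TPM in NS, and the last 6 were lower in every Bud library, for example HMOX1 at 52.8 to 81.9 TPM in Bud and 191 to 196 TPM in NS.

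A list of 30 established GR targets, chosen like the other lists with earlier results of these data known, was followed as a whole. Of the 29 that were tested, 24 were called higher and 0 lower, and the list's median change was 2.19, against 0.00 over all genes. Besides the genes above, PER1 rose by 3.20 ± 0.17, DUSP1 by 2.84 ± 0.13, KLF9 by 2.47 ± 0.23, ZFP36 by 2.28 ± 0.24, NFKBIA by 2.26 ± 0.12 and ERRFI1 by 2.19 ± 0.13. The kinases PDK4, which slows glucose oxidation, and SGK1, which stabilizes sodium channels, rose by 2.09 ± 0.31 and 1.66 ± 0.19. ZBTB16, a strong GR target in many tissues, rose by 1.43 ± 0.19 but only to 0.818, 1.06, 1.02 and 1.12 TPM in Bud libraries, against 0.0441, 0.0512 and 0.0775 TPM in NS libraries. The 5 members that were not called were ANXA1 (0.05), which was abundant in both groups at 1116 to 1334 TPM in Bud and 1093 to 1293 TPM in NS, CRISPLD2 (0.34), CNKSR3 (-0.30), KLF15 (-0.16) and GLUL (0.94, adjusted p = 0.000474). The last of these passed the test but not the minimum size. ALOX15B stayed under the filter, at up to 0.444 TPM in Bud and 0.0248 TPM in NS.

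To show what DNA lies near these genes, the human genome (GRCh38) was searched within 5000 bases on either side of the start site of each gene, in GENCODE release 44, for the letters GAACANNNTGTNC, a GR binding motif with 1 free base in its second arm, on both strands. Of the 384 raised genes with an annotated start site, 51 (13.3%) held at least 1 match, against 6 of 129 lowered genes (4.65%) and 799 of all 13189 genes with a start site (6.06%). The full 15-letter palindrome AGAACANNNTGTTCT, which contains the shorter motif, was in 1 raised gene, 0 lowered genes and 18 of all genes. A match only says that these letters are present. No match was found in this window for CIDEC, OTULINL, TSC22D3, CDH16, CDKN1C, GMPR, BEST2, EDN3 and RGS2, all among the most raised genes. The established GR targets DUSP1, ZFP36, KLF9 and NFKBIA had none either. Sites are printed for 8 raised genes, picked from the 51 with a match as strongly raised or well known. Each is written 5′ to 3′ on the gene's strand, with the 13 matched letters in capitals and 8 bases of flank on either side.
STAC2: gtacccggGAACATTCTGTTCcagaggcc
FKBP5: gtggttcaGGACAGTGTGTTCagcgtttg
TFCP2L1: tgtgcgagGAACAGATTGTACcagtgact
ETNK2: gctggtcaGGACATAGTGTTCtgggcaac
ANGPTL4: ggcaggggGAACAGCATGTGCaaagtccc
PER1: agccaagaGAACATGATGTTCccaagtgc
SCNN1A: gtaaaaaaGAACAGAATGTCCtagggccc
BIRC3: tggaattaGAACAGTATGTTCcctgtaag
The STAC2 match lies in an intron at chr17:39222303-39222315, 3636 bases after the start site, and those of FKBP5 (chr6:35687758-35687770, 1151 bases after it), TFCP2L1 (chr2:121282780-121282792, 2416 bases after it), ETNK2 (chr1:204150355-204150367, 1683 bases after it) and ANGPTL4 (chr19:8368891-8368903, 4742 bases after it) are intronic too. PER1, SCNN1A and BIRC3 have theirs upstream. The PER1 match at chr17:8154461-8154473 is 2063 bases before its start, in an intron of an overlapping unnamed transcript. The SCNN1A match at chr12:6376319-6376331 is 762 bases before its start, and that of BIRC3 (chr11:102312892-102312904) lies 4586 bases before its start, both in intergenic DNA.

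The gene of the receptor was not called. NR3C1 had 33.4, 31.6, 32.3 and 29.7 TPM in Bud libraries, against 40.0, 40.5 and 35.9 TPM in NS libraries (-0.28 ± 0.23, adjusted p = 0.512), so every Bud library was below every NS library but the difference did not pass the test. The test takes its spread from all 20 groups. The SD of NR3C1 was 1.5 TPM in Bud and 2.5 TPM in NS at 6 h, and 2.10 to 9.80 TPM in these groups at 2, 12 and 24 h. Among the 20 tested genes for the receptor, its chaperones, its cofactors and the enzymes that convert cortisol, 3 were called higher and 0 lower, with a list median of -0.03. The chaperone genes HSP90AA1 (-0.47 ± 0.12), STIP1 (-0.35 ± 0.10) and PTGES3 (-0.27 ± 0.05) had adjusted p values of 0.0021, 0.00954 and 1.98e-05 but small changes. The largest change beside FKBP5 was that of HSD11B2, the enzyme that inactivates cortisol, which had 5.65, 6.18, 6.84 and 15.4 TPM in Bud libraries, against 0.333, 0.319 and 0.995 TPM in NS libraries (3.05 ± 0.36), with Bud library 4 well above the others. HSD11B1, which regenerates cortisol, was called higher (1.07 ± 0.36, adjusted p = 0.0304) from values near 0: 0.319, 0.0687, 0.953 and 1.59 TPM in Bud libraries, against 0, 0 and 0.0559 TPM in NS libraries. Its call did not hold when Bud library 3 or 4, or any 1 of the 3 NS libraries, was left out (adjusted p = 0.107 and 0.195 without Bud 3 and 4, and 0.0905, 0.0905 and 0.0603 without NS 1, 2 and 4).

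Many genes that brake inflammatory signaling rose although no cytokine had been given. Of 22 tested, 9 were called higher and 0 lower, with a median of 0.42. DUSP1, the phosphatase that switches off p38 and JNK, had 225, 227, 261 and 260.0 TPM in Bud libraries, against 30.3, 31.4 and 39.2 TPM in NS libraries. ZFP36, or tristetraprolin, which binds AU-rich mRNA and hastens its decay, had 59.3, 68.9, 70.2 and 86.6 TPM in Bud libraries, against 12.6, 10.4 and 21.2 TPM in NS libraries. NFKBIA, the NF-κB inhibitor IκBα, had 159, 169, 194 and 138 TPM in Bud libraries, against 40.4, 30.4 and 31.5 TPM in NS libraries. The groups were clearly separate for these 3 genes. ZC3H12A, an endonuclease that degrades cytokine mRNA, rose by 1.90 ± 0.20, SOCS1, an inhibitor of JAK kinases, by 1.87 ± 0.18, and TNFAIP3, the ubiquitin-editing enzyme A20, by 1.41 ± 0.25. IRAK3, a kinase-dead relative of the IL-1 receptor kinases, had 1.85, 1.88, 1.91 and 2.16 TPM in Bud libraries, against 0.0959, 0.00973 and 0.0328 TPM in NS libraries (2.17 ± 0.19), so it was barely expressed in NS. The remaining called members were TSC22D3 and BIRC3. BIRC3 is less clearly a brake, since it acts in TNF receptor and NF-κB signaling, and it is counted again among the apoptosis regulators. SOCS2, a relative of SOCS1, had the most negative change of the list (-0.80 ± 0.18, adjusted p = 0.000755), below the minimum size.

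Cytokines and chemokines were mostly low in these cells, and those that were called were lowered. Of 30 tested, 0 were called higher and 5 lower, with a median of -0.06, and 17 of the 33 listed were under 1 TPM in all 7 libraries. TNFSF15, the TNF family ligand TL1A, had 0.0954, 0.0867, 0.0612 and 0.0983 TPM in Bud libraries, against 3.20, 2.16 and 2.40 TPM in NS libraries (-2.38 ± 0.19, adjusted p = 3.91e-16). IL11, a cytokine of the IL-6 family, had 1.86, 2.12, 2.01 and 2.35 TPM in Bud libraries, against 5.28, 6.92 and 9.91 TPM in NS libraries (-1.57 ± 0.23). CXCL5, which attracts neutrophils, had 17.5, 17.4, 18.7 and 19.8 TPM in Bud libraries, against 45.8, 43.9 and 57.5 TPM in NS libraries (-1.39 ± 0.17). No Bud library reached the lowest NS library in any of the 3. CCL2, which attracts monocytes, and LIF, another IL-6 family cytokine, fell by 1.24 and 1.10 on the log2 scale. CXCL1 (-0.99 ± 0.18, adjusted p = 2.66e-05) missed the minimum size narrowly. CXCL8 (-0.62 ± 0.24, adjusted p = 0.072) did not pass, and IL6, TNF, CSF2 and CXCL10 were at 0.0680 TPM or less in every library. The 30 interferon-stimulated genes had 0 calls by limma in either direction, with a median of -0.07. At an unadjusted p under 0.05 with no minimum size, 3 were higher and 3 lower, near the shares of all genes (13.5% and 12.2%). Without Bud library 4 or NS library 4 there was 1 lower call, IFITM1, whose Bud libraries were split, at 1.07, 20.0, 1.02 and 10.7 TPM, against 11.8, 11.8 and 19.8 TPM in NS libraries.

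Prostaglandin genes were called in both directions. PTGS2, the inducible cyclooxygenase that makes their common precursor, had 6.66, 5.61, 7.68 and 6.54 TPM in Bud libraries, against 22.4, 22.1 and 23.9 TPM in NS libraries (-1.72 ± 0.33, adjusted p = 5.03e-05). Downstream of it, PTGER4, a receptor of prostaglandin E2 that raises cyclic AMP, had 6.27, 5.32, 8.91 and 4.74 TPM in Bud libraries, against 1.00, 0.717 and 0.66 TPM in NS libraries (2.37 ± 0.24). PTGDS, a synthase of prostaglandin D2, rose by 1.89 ± 0.29, although 77.2% of its 31-base words occur in another gene. HPGD, which breaks prostaglandins down, had 441, 404, 415 and 360.0 TPM in Bud libraries, against 155, 169 and 146 TPM in NS libraries (1.37 ± 0.13). So the precursor enzyme was lower in every Bud library while the degrading enzyme was higher in every one. The matrix protein THBS1 rose by 1.42 ± 0.28. In all, 5 of the 21 tested genes for prostanoids, adhesion and proteolysis were called higher and 1 lower (median -0.03). The lower calls were 2 without Bud library 4 and without NS library 1. The adhesion genes ICAM1 and VCAM1 were at 0.567 TPM or less in all 7 libraries.

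Immediate early genes, which growth factors and stress switch on within minutes, were mixed, with 2 called higher and 4 lower of 21 (median -0.12). FOS, an AP-1 subunit, had 18.4, 13.6, 30.7 and 27.8 TPM in Bud libraries, against 3.75, 1.13 and 2.88 TPM in NS libraries (2.94 ± 0.49). CCN2, a matricellular protein, had 63.7, 84.7, 62.8 and 104 TPM in Bud libraries, against 13.0, 16.9 and 17.4 TPM in NS libraries (2.27 ± 0.21). Against these, IER3, a short-lived survival factor, had 10.4, 12.6, 10.7 and 14.2 TPM in Bud libraries, against 45.5, 49.7 and 51.2 TPM in NS libraries (-1.99 ± 0.12, adjusted p = 1.03e-21). ATF3, IER2 and the orphan receptor NR4A2 fell by 1.70, 1.21 and 1.21 on the log2 scale. Other AP-1 genes passed the test below the minimum size in both directions, JUNB at 0.90 ± 0.16, FOSL2 at 0.98 ± 0.21 and JUND at -0.79 ± 0.15. Of the Krüppel-like and C/EBP factors, 4 of 17 were called higher and 0 lower (median 0.16). KLF9, a repressor that GR induces in many tissues, had 5.45, 6.41, 7.66 and 5.07 TPM in Bud libraries, against 0.763, 0.737 and 0.574 TPM in NS libraries. KLF6 rose by 1.66 ± 0.21, and CEBPD and CEBPB, which cooperate with GR at many promoters, rose by 1.70 ± 0.18 and 1.39 ± 0.13. Among the MAPK phosphatases, DUSP1 was the only 1 of 10 called higher and DUSP8 the only one called lower, at 0.472, 0.352, 0.435 and 1.38 TPM in Bud libraries, against 2.54, 2.24 and 3.49 TPM in NS libraries (-1.55 ± 0.26). DUSP4, an ERK and JNK phosphatase, had 18.6, 18.7, 20.5 and 18.1 TPM in Bud libraries, against 36.4, 36.2 and 36.3 TPM in NS libraries (-0.92 ± 0.11, adjusted p = 5.32e-10), just short of a log2 change of 1 in size.

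The 4 circadian clock genes that were called were repressors of the clock, and all 4 rose. PER1, a repressor whose gene is a textbook GR target, had 39.4, 50.8, 49.5 and 54.3 TPM in Bud libraries, against 4.84, 4.88 and 4.70 TPM in NS libraries (adjusted p = 5.13e-24). CIART, another repressor, rose by 2.10 ± 0.20, CRY2 by 1.73 ± 0.15 and PER2 by 1.33 ± 0.24. Of 18 tested, 4 were thus called higher and 0 lower, with a median of 0.01. The activators CLOCK (-0.06) and ARNTL (-0.45) did not pass the test, NPAS2 (-0.67 ± 0.18, adjusted p = 0.0041) and the repressor BHLHE40 (-0.83 ± 0.15) were lower below the minimum size, and CRY1 (-0.03) and PER3 (-0.41) did not pass. Without Bud library 1 there was 1 lower call.

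The α, β and γ subunits of the epithelial sodium channel, which draws fluid out of the airspace, rose. SCNN1A, the α subunit, had 43.1, 42.5, 43.1 and 35.8 TPM in Bud libraries, against 8.42, 10.7 and 6.34 TPM in NS libraries (2.24 ± 0.27). The β subunit SCNN1B had 5.03, 6.03, 5.45 and 5.59 TPM in Bud libraries, against 0.842, 0.623 and 0.635 TPM in NS libraries (2.33 ± 0.18), and the γ subunit SCNN1G had 3.15, 3.44, 3.08 and 3.97 TPM in Bud libraries, against 0.146, 0.06 and 0.11 TPM in NS libraries (2.69 ± 0.11, adjusted p = 1.81e-30). The α subunit was by far the most abundant of them on the TPM scale, which divides by transcript length, and SCNN1G was near 0 in NS. Both parts of the ATP-sensitive potassium channel rose. The pore KCNJ11 had 11.4, 15.1, 12.1 and 9.78 TPM in Bud libraries, against 1.75, 1.65 and 1.57 TPM in NS libraries (2.53 ± 0.19). Its regulator ABCC8 had 22.8, 36.0, 26.2 and 20.3 TPM in Bud libraries, against 3.92, 2.73 and 3.19 TPM in NS libraries (2.81 ± 0.38). The water and glycerol channel AQP3 rose by 1.70 ± 0.30, the potassium channel KCNJ16 by 1.36 ± 0.31 and the chloride channel ANO1 by 1.06 ± 0.35. Of 26 tested genes for sodium and fluid transport, 9 were called higher and 0 lower (median 0.43). NEDD4L, the ubiquitin ligase that removes the sodium channel from the membrane, was higher below the minimum size (0.79 ± 0.19), and CFTR (0.18, adjusted p = 0.887) did not pass.

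Genes for storing and burning fat were among the raised ones. In the lipid droplet and fatty acid list 8 of 20 were called higher and 0 lower (median 0.38). Next to CIDEC, ANGPTL4 and ETNK2 these were ACSL1, which activates fatty acids (80.6, 86.0, 110.2 and 76.8 TPM in Bud libraries, against 17.9, 13.7 and 15.1 TPM in NS libraries), PDK4, PLIN2, a droplet coat protein (1.18 ± 0.13), G0S2, an inhibitor of fat breakdown (1.42 ± 0.23), and the choline kinase CHKA (1.06 ± 0.12). Of 24 genes for cholesterol and fatty acid synthesis 0 were called by limma in either direction, with a median of -0.15. At an unadjusted p under 0.05 with no minimum size 2 were higher and 9 lower, against 13.5% and 12.2% of all genes. INSIG1, which holds the sterol sensor in the endoplasmic reticulum, had the most negative value (-0.73 ± 0.09), and ABCG1, which exports cholesterol, the most positive (0.85 ± 0.16). The metal-binding metallothioneins had 3 called higher of 6 tested (median 1.09). MT2A had 1259, 1768, 1852 and 1301 TPM in Bud libraries, against 272, 315 and 499 TPM in NS libraries (2.12 ± 0.32). MT1X had 185, 288, 353 and 149.7 TPM in Bud libraries, against 32.4, 26.7 and 84.6 TPM in NS libraries (2.44 ± 0.50), with a wide spread among the NS libraries. MT1G was called at 1.24 ± 0.43 (adjusted p = 0.0398), but its groups overlapped, and the call did not hold without Bud library 2 or 3 or NS library 1 or 2 (adjusted p = 0.121, 0.176, 0.143 and 0.140). These genes are near copies of each other: 57.5% of the 31-base words of MT1X, 31.1% of those of MT1G and 18.9% of those of MT2A also occur in transcripts of another gene, so the split of reads between them is uncertain.

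Acute phase and complement genes had 3 called higher of 25 and 0 lower (median 0.35), and the higher calls were 5 without Bud library 2. SERPINA3, a protease inhibitor of the acute phase, had 4.35, 9.58, 8.12 and 7.17 TPM in Bud libraries, against 1.19, 2.51 and 2.00 TPM in NS libraries (1.69 ± 0.24), and 57.7% of its 31-base words occur in another gene. SAA1, serum amyloid A, had 1.38, 2.13, 1.35 and 3.40 TPM in Bud libraries, against 0, 0 and 0.238 TPM in NS libraries (2.10 ± 0.32), so it was still low in Bud and near 0 in NS, and 29.6% of its 31-base words occur in another gene. HPX, the heme carrier hemopexin, had 6.85, 13.7, 19.5 and 6.65 TPM in Bud libraries, against 0.59, 0.636 and 0.908 TPM in NS libraries. Its change was 3.20 ± 0.96 (adjusted p = 0.0135), with a large SE, and the adjusted p was 0.0505 without NS library 1. At 2, 12 and 24 h the change of HPX was -0.42, -0.54 and 0.79, and none of these passed the test. C1R (0.82 ± 0.18) and C1S (0.67 ± 0.15), the proteases that start the complement cascade, were higher below the minimum size.

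Genes that restrain insulin and growth signaling had 8 called higher and 2 lower of 27 (median 0.53). FOXO3, a transcription factor that insulin switches off, had 15.7, 17.1, 18.1 and 15.1 TPM in Bud libraries, against 3.99, 3.77 and 3.92 TPM in NS libraries (1.95 ± 0.15), although 48.5% of its 31-base words are shared with another gene. IGFBP1, a binding protein that sequesters insulin-like growth factors, rose by 2.28 ± 0.37. CITED2, a competitor for the coactivators of hypoxia factors, rose by 1.98 ± 0.16, DDIT4, an inhibitor of mTORC1, by 1.69 ± 0.10 and GADD45A, a growth arrest protein, by 1.78 ± 0.13. IGFBP3 and DDIT4L fell by 1.19 and 1.18 on the log2 scale, and without NS library 4 the lower calls were 1. In the EGFR pathway 2 inhibitors rose, ERRFI1, which had 171, 164, 176 and 187 TPM in Bud libraries, against 36.0, 36.7 and 40.9 TPM in NS libraries, and SPRY1 (1.73 ± 0.17). At the same time 2 ligands fell, EREG, which had 3.28, 3.76, 3.51 and 3.54 TPM in Bud libraries, against 9.43, 10.0 and 9.27 TPM in NS libraries, and AREG (-1.20 ± 0.16). These 4 were the only calls among 20 genes (median -0.03). EGFR itself had 35.0, 36.2, 31.8 and 34.3 TPM in Bud libraries, against 17.7, 18.8 and 16.6 TPM in NS libraries (0.94 ± 0.19), just under the minimum size. The TGF-β superfamily had 4 called higher and 4 lower of 27 (median -0.05). TGFBR1, the type I receptor, had 53.1, 59.3, 67.6 and 79.1 TPM in Bud libraries, against 16.8, 16.1 and 25.9 TPM in NS libraries (1.72 ± 0.28). ID1, FSTL3 and the coreceptor TGFBR3 rose by 1.19 ± 0.22, 1.08 ± 0.15 and 1.01 ± 0.31. GDF15 fell most, and TGFB2 and the decoy receptor BAMBI fell by 1.14 and 1.26 on the log2 scale. FST, or follistatin, which binds activins, fell by 1.56 on that scale with values of 0.861, 0.179, 0.758 and 0.38 TPM in Bud libraries, against 2.35, 2.23 and 2.88 TPM in NS libraries. For G protein signaling RGS2 was the only 1 of 18 called higher. The bradykinin receptor BDKRB2 (3.57, 3.26, 5.05 and 3.55 TPM in Bud libraries, against 9.96, 9.31 and 9.66 TPM in NS libraries) and the cyclic AMP phosphodiesterase PDE7B (-1.29 ± 0.16) were called lower (median 0.01).

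Of 29 apoptosis regulators 2 were called higher and 0 lower (median 0.05). BIRC3, a ubiquitin ligase of the inhibitor of apoptosis family that acts in TNF receptor and NF-κB signaling, had 57.2, 52.2, 43.7 and 45.8 TPM in Bud libraries, against 10.9, 12.2 and 10.1 TPM in NS libraries (2.11 ± 0.18, adjusted p = 4.86e-15). The lowest Bud library was several times the highest NS library. Its close relative BIRC2, which lies beside it in the genome, had 36.4, 28.8, 26.7 and 23.2 TPM in Bud libraries, against 26.4, 29.0 and 24.3 TPM in NS libraries (0.10 ± 0.14, adjusted p = 0.764), and here the groups overlapped. MCL1, an antiapoptotic BCL2 protein with a short life, had 117, 113, 119 and 113 TPM in Bud libraries, against 48.0, 49.9 and 49.1 TPM in NS libraries (1.23 ± 0.10). BCL2L1, its relative BCL-XL, was higher below the minimum size (0.86 ± 0.07, adjusted p = 2.54e-16), as was CFLAR (0.64 ± 0.12), an inhibitor of caspase 8. The caspases 3, 7, 8, 9 and 10 had changes between -0.17 and 0.09 and did not pass. In lists with 0 genes called lower by limma, the number lower at an unadjusted p under 0.05 with no minimum size was 1 of 29 GR targets, 6 of 20 genes for the receptor and chaperones, 3 of 22 feedback brakes, 1 of 17 Krüppel-like and C/EBP factors, 5 of 18 clock genes, 3 of 26 genes for sodium and fluid transport, 3 of 29 apoptosis regulators and 0 for the acute phase, lipid and metallothionein lists, against 12.2% of all genes. Of the 30 cytokines, 2 were higher by that measure, against 13.5% of all genes.

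**Figure D3:**
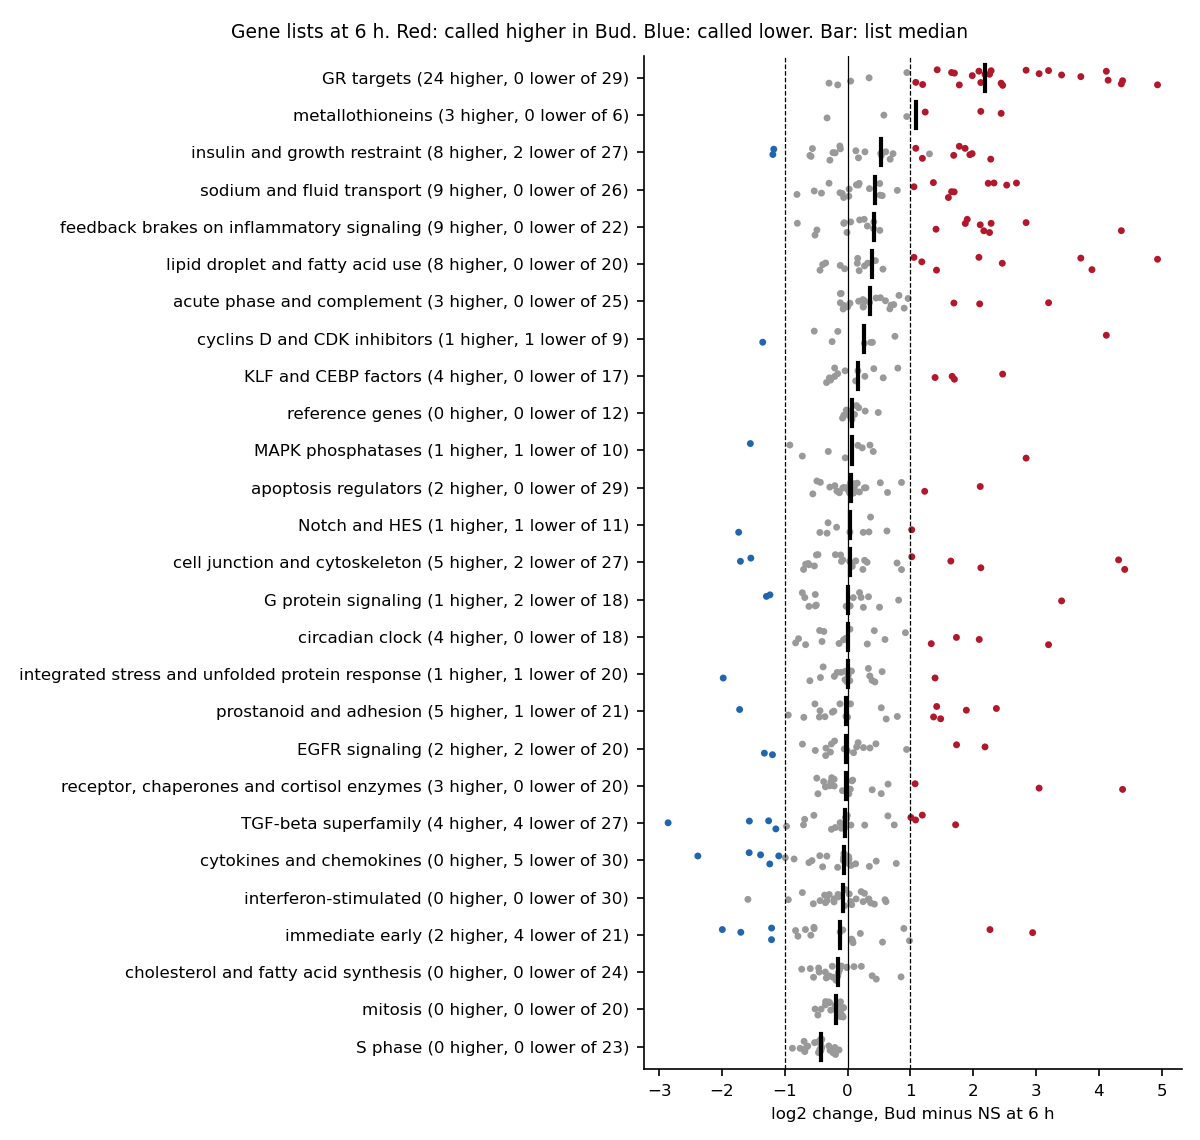
Each point is the log2 change, Bud minus NS at 6 h, of 1 tested gene of a list. Red points are called higher, blue points called lower and grey points not called, the thick bar is the list's median, and the counts stand beside each list. GR targets reach furthest to the right (24 of 29 called higher, median 2.19), and all 23 S phase and 20 mitosis genes lie left of 0 without a call.

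The 10 most lowered genes with no overlap between the groups were led by RASSF10, a member of the RAS association domain family, at 0.146, 0.252, 0.213 and 0.188 TPM in Bud libraries, against 5.81, 6.41 and 2.83 TPM in NS libraries (-2.91 ± 0.25, adjusted p = 7.47e-15). GDF15, a stress-induced hormone that curbs appetite, had 5.11, 5.19, 5.89 and 3.78 TPM in Bud libraries, against 44.5, 42.1 and 31.4 TPM in NS libraries (-2.86 ± 0.30). In both genes even the highest Bud library was far below the lowest NS library. CYP24A1, the enzyme that inactivates vitamin D, had 116, 131, 116 and 109.5 TPM in Bud libraries, against 649, 683 and 623 TPM in NS libraries (-2.46 ± 0.14), the largest loss in TPM among the 10. NR0B1, the orphan nuclear receptor DAX1 that represses other nuclear receptors, had 6.18, 5.97, 5.04 and 5.56 TPM in Bud libraries, against 37.6, 33.7 and 28.5 TPM in NS libraries (-2.44 ± 0.16). PTHLH, the parathyroid hormone-related protein, had 1.98, 1.39, 2.41 and 2.14 TPM in Bud libraries, against 10.9, 12.0 and 10.1 TPM in NS libraries (-2.22 ± 0.20). TRIML2, a relative of the tripartite motif proteins, changed by -2.47 ± 0.25, TM4SF20, a membrane protein with several transmembrane segments, by -2.77 ± 0.61, and TNFSF15 is described above. PCDHB3, a clustered protocadherin, had 0.046, 0.142, 3.41 and 0.398 TPM in Bud libraries, against 3.86, 3.62 and 9.22 TPM in NS libraries (-2.41 ± 0.83, adjusted p = 0.0352). Its call is fragile: it did not hold when any library other than Bud 3 was left out (adjusted p of 0.0563 to 0.179), and 33.1% of its 31-base words occur in another gene. OSGIN1, an oxidative stress response gene, had 7.56, 11.3, 8.53 and 8.36 TPM in Bud libraries, against 48.6, 44.1 and 40.4 TPM in NS libraries (-2.26 ± 0.12, adjusted p = 1.5e-24).

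OSGIN1 and several other lowered genes are known targets of NRF2, the regulator of antioxidant defence that is held in check by KEAP1, a protein that is mutated in A549. A list of 27 such genes, drawn up after these values had been seen and so given as a description, had 7 called lower and 0 higher, and 26 of 27 changes were negative (median -0.56). Glutathione synthesis was among them. GCLM, a subunit of its rate-limiting enzyme, had 42.6, 38.2, 37.7 and 40.4 TPM in Bud libraries, against 134, 129.8 and 119.8 TPM in NS libraries (-1.68 ± 0.13). GCLC, the other subunit, changed by -1.02 ± 0.20. SLC7A11, the cystine importer that feeds it, had 15.1, 16.2, 10.8 and 16.3 TPM in Bud libraries, against 54.7, 58.1 and 62.5 TPM in NS libraries (-1.98 ± 0.25). HMOX1, which breaks down heme, had 69.1, 75.1, 52.8 and 81.9 TPM in Bud libraries, against 191, 196 and 191 TPM in NS libraries (-1.48 ± 0.15). SRXN1, which repairs peroxiredoxins, had 66.0, 57.9, 59.5 and 71.2 TPM in Bud libraries, against 180.2, 174 and 187 TPM in NS libraries (-1.50 ± 0.07). In each of these genes the Bud libraries lay well apart from the NS libraries. NQO1, a classical NRF2 target, was lower by less (-0.39 ± 0.06). NFE2L2, the gene of NRF2 itself, had 44.1, 40.0, 43.7 and 44.2 TPM in Bud libraries, against 63.6, 64.7 and 66.9 TPM in NS libraries (-0.59 ± 0.11, adjusted p = 1.32e-05). FTH1, the ferritin heavy chain, was the only one with a positive change (0.29). For SRXN1, NFE2L2 and FTH1, 90.6%, 73% and 84.8% of the 31-base words occur in another gene, so the assignment of their reads is uncertain.

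Cell cycle genes were lower without reaching a call. Of 23 S phase genes, which load and fire replication origins or make DNA precursors, all 23 had negative changes, 14 with an adjusted p of at most 0.05, and 0 were called at the minimum size (median -0.43). By unadjusted p under 0.05, 17 were lower. Over all genes tested, the shares that were lower were 6.65% by that adjusted p and 12.2% by that unadjusted p. CDC6, which loads the replicative helicase, had 31.5, 29.3, 23.3 and 22.9 TPM in Bud libraries, against 50.2, 47.6 and 49.6 TPM in NS libraries (-0.88 ± 0.15). MCM6, a helicase subunit, had 41.8, 32.7, 32.2 and 35.5 TPM in Bud libraries, against 58.7, 55.9 and 58.3 TPM in NS libraries (-0.70 ± 0.14). PCNA, the sliding clamp, had 231, 227, 219 and 220.3 TPM in Bud libraries, against 304, 322 and 308 TPM in NS libraries (-0.47 ± 0.07, adjusted p = 2.74e-07). In all 3 the groups did not overlap. Of 20 mitosis genes all changes were negative too, but smaller (median -0.18), with 0 calls and 1, AURKA (-0.47 ± 0.11), at an adjusted p of at most 0.05. By unadjusted p under 0.05, 6 were lower, against 12.2% of all genes. The sum of the S phase genes was 979 to 1147 TPM in Bud and 1406 to 1457 TPM in NS, and that of the mitosis genes 910 to 1129 TPM in Bud and 1189 to 1260 TPM in NS. Among D cyclins and CDK inhibitors, CDKN1C was called higher and CCND3, a cyclin of G1, lower at 45.3, 47.9, 50.4 and 69.2 TPM in Bud libraries, against 137, 112 and 159 TPM in NS libraries (-1.35 ± 0.13), of 9 tested (median 0.27). CDKN1A, the inhibitor p21, was higher below the minimum size (0.75 ± 0.10).

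For cell junctions and the cytoskeleton 5 of 27 genes were called higher and 2 lower (median 0.03). Besides STAC2 and CDH16 the raised genes were CLDN7, a tight junction claudin (2.37, 4.42, 4.42 and 2.74 TPM in Bud libraries, against 0.216, 0.46 and 0.527 TPM in NS libraries), PKP2, a desmosome plaque protein (1.64 ± 0.18), and the keratin KRT8. KRT8 had 6357, 5732, 5886 and 6906 TPM in Bud libraries, against 2936, 2722 and 3565 TPM in NS libraries (1.02 ± 0.13, adjusted p = 7.97e-09). Its partner KRT18 and KRT7 were higher below the minimum size (0.86 ± 0.18 and 0.79 ± 0.18). These 3 keratins made up most of the summed epithelial markers, which were 13750 to 17030 TPM in Bud and 7440 to 9892 TPM in NS, while 6 of the 11 tested markers had negative changes. CLDN2 and KRT80 fell by 1.54 and 1.71 on the log2 scale. In the Notch list of 11 genes the receptor NOTCH2 was called higher (1.02 ± 0.21; 15.6 TPM in Bud and 7.41 TPM in NS on average), a call that ended without Bud library 2, where the change was 0.98. The target HES1 was called lower at 1.19, 0.844, 1.23 and 0.796 TPM in Bud libraries, against 4.45, 4.25 and 4.82 TPM in NS libraries (-1.73 ± 0.20). In the stress response list CEBPB rose and SLC7A11 fell, and the other 18 genes, ATF4 (-0.04), DDIT3 (0.33) and HSPA5 (0.03) among them, were not called. The 12 reference genes had 0 calls and a median of 0.07, and the 13 mitochondrially encoded genes had 0 calls and a median of 0.03. At an unadjusted p under 0.05 with no minimum size, 2 reference genes were higher and 0 lower. Of the mitochondrial genes 0 were higher and 0 lower, against 13.5% and 12.2% of all genes by that measure. Ranked by TPM gained, a choice made after the values were seen, the largest gain after KRT8 was that of NDRG1, a gene that stress and hypoxia induce, at 2843, 2683, 2151 and 3706 TPM in Bud libraries, against 589.6, 468 and 749.9 TPM in NS libraries (2.24 ± 0.32).

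The response at 6 h was then set against the response at other times, each computed with the NS libraries of its own hour, by testing the difference between the 2 changes. Against 2 h, 174 genes had a more positive change at 6 h (1.31%) and 38 a more negative one (0.285%). Of the 386 genes called higher at 6 h, 163 were among the 174, and of the 129 called lower 37 were among the 38. Since genes called at 6 h were chosen for a large change there, some shift in this direction is built into these counts. Against 12 h the counts were 39 (0.293%) and 4 (0.0300%), and included 3 and 1 of the genes called higher at 6 h and 1 and 1 of those called lower. The count of 4 was 8 with the replicate number as a block, 2 without Bud library 3 or NS library 2 at 6 h, and 7 without Bud library 2 at 12 h, which stood apart. Against 24 h they were 486 (3.65%) and 102 (0.765%), and included 26 and 17 of the genes called higher at 6 h and 6 and 5 of those called lower. The plot of changes over time shows the main shapes.

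Several genes had most of their change after 2 h. STAC2 was at 1.24, 1.13, 0.639 and 0.688 TPM in Bud libraries at 2 h, against 0.0619, 0.158, 0.0956 and 0.0394 TPM in NS libraries at 2 h, and its change at 6 h exceeded that at 2 h by 3.16 ± 0.17 (adjusted p = 4.38e-23). Among the differences that were called, ABCC8 at 2.86 ± 0.52 and SLC16A12, a transporter of the monocarboxylate family, at 2.86 ± 0.37 had the next largest differences. At 6 h SLC16A12 had 5.22, 4.43, 5.41 and 9.03 TPM in Bud libraries, against 0.321, 0.0902 and 0.431 TPM in NS libraries. Among lowered genes with a called difference, TRIML2, NR0B1 and SLC7A11 had the most negative ones, at -2.25 ± 0.34, -1.93 ± 0.21 and -1.72 ± 0.35. SLC7A11 at 2 h had 46.4, 47.0, 22.2 and 49.3 TPM in Bud libraries, against 48.0, 44.7, 44.9 and 51.7 TPM in NS libraries, with Bud library 3 the lowest. That library stood apart from the other 3 Bud libraries at 2 h, and without it the more positive and more negative counts against 2 h were 161 and 42. Genes also differed in how early they moved. The log2 changes of ZFP36 were 2.24 at 1 h, 2.60 at 2 h and 2.28 at 6 h, and those of DUSP1 were 2.21, 2.35 and 2.84. Those of FKBP5 were -0.01, 2.14 and 4.38, a later course.

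Fewer genes set 6 h apart from 12 h. The change of HMOX1 was smaller again at 12 h, when it had 98.2, 129.5, 80.1 and 114 TPM in Bud libraries, against 151, 149, 104 and 136 TPM in NS libraries, a difference between the changes of -1.12 ± 0.20 (adjusted p = 0.000311), which was -0.99 without Bud library 3 at 6 h. Both groups moved: from 6 h to 12 h the mean went from 69.7 to 105.5 TPM in Bud and from 192.5 to 135 TPM in NS. RTN4RL1, a relative of the Nogo receptor, had 1.58, 1.86, 1.71 and 1.05 TPM in Bud libraries, against 0.35, 0.207 and 0.27 TPM in NS libraries at 6 h (1.39 ± 0.11). There was no such gap at 12 h, with 0.449, 0.522, 0.421 and 0.367 TPM in Bud and 0.39, 0.334, 0.463 and 0.367 TPM in NS (difference 1.31 ± 0.14). CITED1, a relative of CITED2, had 1.74, 1.46, 2.52 and 1.25 TPM in Bud libraries, against 0, 0.441 and 0.187 TPM in NS libraries at 6 h (1.68 ± 0.32), and 54.2% of its 31-base words occur in another gene. Its difference from 12 h was 1.80 ± 0.44 (adjusted p = 0.0194), which was not called without Bud library 3 or NS library 1 (adjusted p = 0.0599 and 0.117). BCAS1 went further down by 12 h. It had 2.93, 3.25, 3.16 and 2.58 TPM in Bud libraries, against 10.0, 9.13 and 10.3 TPM in NS libraries at 6 h (-1.57 ± 0.14). At 12 h it had 0.754, 0.625, 0.694 and 0.783 TPM in Bud and 11.9, 7.92, 10.9 and 9.76 TPM in NS (difference 1.55 ± 0.19). SERPINA3 went further up, by 2.99 at 12 h (difference -1.30 ± 0.32, adjusted p = 0.0254). That difference was not called without Bud library 1 or NS library 2 or 4, where the adjusted p was 0.110, 0.144 and 0.0750.

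By 24 h the spread of responses was wider. CKB, the brain type creatine kinase, had 432, 442, 414 and 350.2 TPM in Bud libraries, against 59.5, 59.5 and 48.9 TPM in NS libraries at 6 h (2.86 ± 0.18). At 24 h it had 119, 132, 109 and 106 TPM in Bud and 84.2, 71.5, 84.4 and 49.4 TPM in NS, a difference of 2.15 ± 0.25 (adjusted p = 2.04e-10). SCNN1B went the other way, with 29.2, 21.0, 22.9 and 29.0 TPM in Bud and 0.887, 0.937, 0.98 and 0.703 TPM in NS at 24 h (difference -1.90 ± 0.24), and so did SERPINA3 (difference -2.27 ± 0.32) and HPD, an enzyme of tyrosine breakdown (difference -1.76 ± 0.25). HPD had 4.51, 4.22, 4.22 and 5.48 TPM in Bud libraries, against 1.18, 1.21 and 1.81 TPM in NS libraries at 6 h. FST, lowered at 6 h, was lower still at 24 h, at 0.0615, 0.0797, 0.317 and 0.0226 TPM in Bud and 5.66, 5.23, 9.70 and 5.98 TPM in NS (difference 1.94 ± 0.54). U2AF1, a splicing factor, was called higher at 6 h at 22.2, 25.5, 23.9 and 20.5 TPM in Bud libraries, against 6.80, 4.34 and 7.24 TPM in NS libraries (1.85 ± 0.56, adjusted p = 0.0135). At 24 h it had 21.3, 20.8, 23.4 and 5.40 TPM in Bud and 25.6, 23.6, 27.0 and 21.1 TPM in NS (difference 2.48 ± 0.76), so the NS libraries at 6 h and 1 Bud library at 24 h were the low ones. Its call at 6 h did not hold without NS library 2 (adjusted p = 0.0850), and 48.3% of its 31-base words occur in another gene.

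The S phase and mitosis genes also set 6 h apart from later times. All 23 S phase genes had a called more positive change at 6 h than at 24 h, and 13 of the 23 than at 12 h. Against 2 h 0 differences were called, but their median was -0.41, which is below the minimum size of 1 for a call. The list's median change of -0.43 at 6 h stood between -0.02 at 2 h and, later, -1.49 at 12 h and -2.40 at 24 h. For the 20 mitosis genes the called differences were 20 against 24 h and 0 against 12 h and 2 h, with medians of -0.07, -0.18, -0.29 and -2.62 at the same times in order. The log2 change of CDC6 was -0.88 at 6 h and -3.85 at 24 h, when it averaged 3.11 ± 0.518 TPM in Bud and 51.4 ± 4.45 TPM in NS (SD, n = 4 each). CDK1, the kinase that drives entry into mitosis, had values of -0.35 at 6 h and -3.28 at 24 h. The NS sums of the 2 lists stayed within 1280 to 1563 and 1009 to 1356 TPM across all 5 times.

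**Figure D4:**
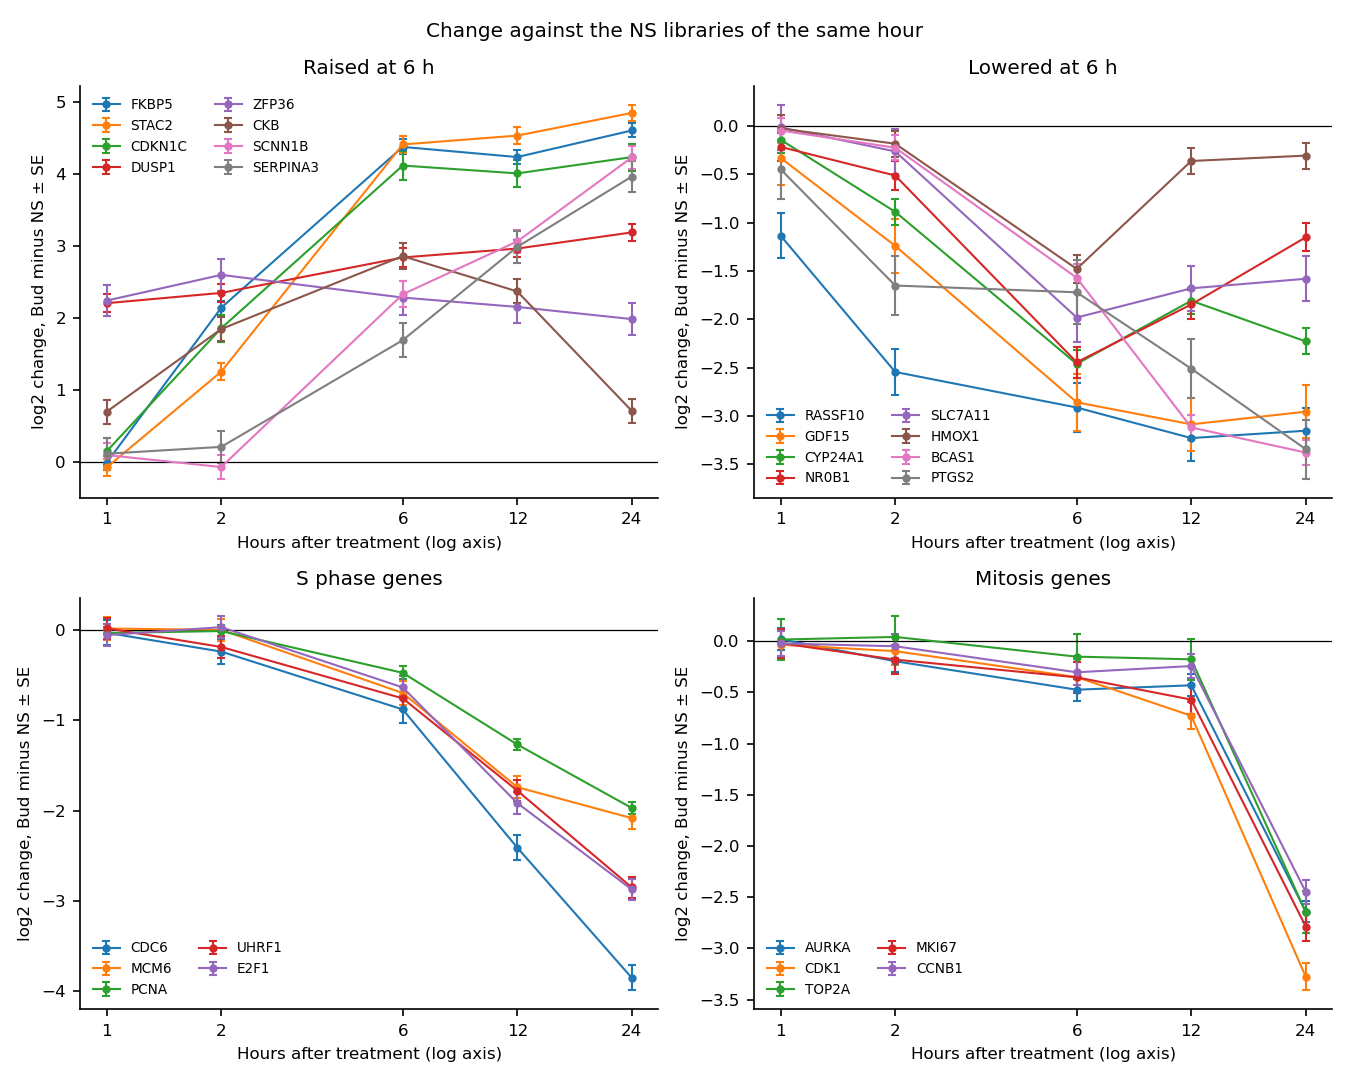
The log2 change, Bud minus NS of the same hour, with its SE, at 1, 2, 6, 12 and 24 h (log axis) for 26 genes in 4 panels. Of the raised genes CKB has its largest change at 6 h and SERPINA3 and SCNN1B have theirs at 24 h, HMOX1 is at -1.48 at 6 h and -0.36 at 12 h, and S phase genes such as CDC6 have most of their decline between 6 and 24 h and mitosis genes such as CDK1 after 12 h.

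Some of these genes also respond to IL-1β, and the values at 6 h can be set side by side, bearing in mind that the comparisons share the 3 NS libraries. PTGS2 averaged 6.62 TPM in Bud cells, 485 TPM in IL-1β cells, 29.3 TPM in cells given both and 22.8 TPM in NS cells. IER3 averaged 12.0, 194, 26.0 and 48.8 TPM in the same order of groups. So both were lowest in Bud cells and highest in IL-1β cells. BIRC3, in contrast, averaged 49.8 TPM in Bud cells, 177 TPM in IL-1β cells, 225 TPM in cells given both and 11.1 TPM in NS cells, and was higher in all 3 treated groups than in NS.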

How the data were processed

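Poly(A) RNA of A549 cells was made into stranded libraries, which the authors quantified with kallisto against the human transcriptome (GRCh38/hg38) and normalized with sleuth. Tool versions were not given in the sources used here. The deposited values are TPM per gene and library, a normalized signal and not counts, so read depth is unknown and limits on low values cannot be set. A deposited file of the authors' own comparisons (log2 fold change, FDR, direction, time of peak regulation) was not used. The table holds 1 library, NS at 6 h number 3, that the labels used here do not list, and it was not analysed here.

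Of 19652 genes, the 13327 with at least 1 TPM in 3 of the 78 libraries were tested on log2(TPM + 0.5) with limma 3.58.1 (R 4.3.3), using 1 mean for each of 20 groups, a trended prior and 58 residual degrees of freedom, with Benjamini-Hochberg adjustment. Responses at different times were compared by the difference between their contrasts in that fit. Because a minimum was set on any 3 libraries, genes high in Bud alone could pass. Data were simulated for all 78 libraries, 4 Bud and 3 NS at 6 h among them, from the fitted means and residual spread. From these the method recovered 1 of 50 genes at a true fold of 1.5 and 47 of 50 at 2.5. At 4 and 8 it recovered 50 of 50 and 49 of 50, and it called 2 genes that had not been altered. The simulated libraries varied independently, without effects shared by libraries of the same number, so performance on the real data may differ. Genes named by rule are the 14 most raised and 10 most lowered called genes whose groups did not overlap, up to 3 called members of each list with the largest change, up to 3 called genes with the largest difference from each other time in each direction, and NR3C1, BIRC3 and BIRC2. A few items are not reported here. Other genes are named as members of the lists, or after their values were seen. The members and lists were chosen with earlier results of these data known.

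Bud and NS libraries with the same number deviated together from their group means (r = 0.122, 0.208 and 0.416 across genes for numbers 1, 2 and 4), although Bud 1 with NS 2 (0.116) and Bud 2 with NS 1 (0.112) came close to the first of these. The numbers were taken as pairs from the data alone, and a fit with the number as a block was an alternative. Other alternatives were pseudocounts, filters, scalings, narrower fits and leaving out each library. Replicates are taken as separate experiments, as the labels state, without saying which library came from which. Shared 31-base words and start sites came from GENCODE release 44 (GRCh38). The shares are printed for some genes only, and a gene named without one may share words too.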

Additional observations from a re-analysis of the deposited data

Results flagged for a closer look

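In 5 of the 81 genes tested for a library apart from the other 3 of its group, 1 Bud library lay apart from the rest, judged against the spread of its group. Chance gives about 1 in 20 such cases. Bud library 4 was the high one for CITED2 (26.64 TPM), DUSP8 (1.383 TPM) and HSD11B2 (15.4 TPM), and Bud library 3 for PCDHB3 (3.412 TPM) and RGS2 (80.29 TPM). For CITED2 the other Bud libraries had values of 24.2, 23.8 and 24.1 TPM, so the gap itself was small. The per-library values of the other 4 genes are given above, and what set these libraries apart was not tested.

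The change at 6 h differed from that at 2 h by 3.156 on the log2 scale for STAC2, 2.861 for ABCC8, 2.858 for SLC16A12, -2.247 for TRIML2, -1.932 for NR0B1 and -1.718 for SLC7A11 (limma adjusted p = 4.38e-23, 0.000101, 5.31e-08, 1.78e-06, 4.64e-10 and 0.000453). It differed from that at 12 h by 1.797 for CITED1, 1.549 for BCAS1, 1.306 for RTN4RL1, -1.296 for SERPINA3 and -1.116 for HMOX1 (adjusted p = 0.0194, 2.09e-07, 6.66e-09, 0.0253 and 0.000311). From that at 24 h it differed by 2.482 for U2AF1, 2.15 for CKB, 1.944 for FST, -2.273 for SERPINA3, -1.901 for SCNN1B and -1.759 for HPD (adjusted p = 0.0194, 2.04e-10, 0.00882, 1.13e-07, 5.41e-09 and 1.17e-07). The U2AF1 difference was not called without NS library 2 at 6 h (adjusted p = 0.0651).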

How the results depend on the processing

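The counts of genes called at 6 h ranged from 371 to 410 higher and from 124 to 135 lower when each of the 7 libraries was left out in turn. With only genes of a mean of at least 5 TPM there were 218 higher calls, all among the 386, and 79 genes more positive than at 2 h, 25 more positive than at 12 h and 60 more negative than at 24 h, where fewer genes were tested. Quantile normalization gave 22 genes more positive than at 12 h. The 4 genes more negative than at 12 h were 1 in a fit over the libraries compared only, 8 with the replicate block, 7 without the Bud libraries that stood apart at 2 h and 12 h (chosen after seeing the data) and 2 to 5 with 1 library left out, and the cause was not tested. The replicate block gave 409 higher and 135 lower calls, changed no call of a named gene, and added 1 lower call among the cytokines and 1 higher call each among the immediate early, acute phase and insulin lists. The share of calls that were higher stayed between 70.6% and 76.2% over all settings (75.0% as reported), and no scaling moved the median of all genes by over 0.1.

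Of 81 named genes under 18 settings, 1432 gene and setting pairs gave a value. None reversed, 32 lost a call, and these 32 fell on 7 genes: HPX, HSD11B1, MT1G, NOTCH2, PCDHB3, RTN4RL1 and U2AF1. MT1G lost its call under 10 settings, with adjusted p values up to 0.176. The U2AF1 change was 0.45 against the mean of the 5 NS groups (limma adjusted p = 0.449). RTN4RL1 fell under a change of 1 with a pseudocount of 1. The difference of CITED1 from 12 h also lost its call in the fit over the libraries compared only, with a pseudocount of 0.1 and with quantile normalization (limma adjusted p = 0.126, 0.0615 and 0.0575), and that of SERPINA3 in both narrower fits (0.229 and 0.102). With 3 NS libraries, no exact test of a single value can pass 0.05. TPM without counts gives no depth, so values near 0, such as those of HSD11B1 and SAA1, have no stated floor.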
